A study of Mus musculus with 12 samples.

Results

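Complement is a cascade of proteins that tags microbes, dying cells and immune complexes. In the classical pathway C1q, built from the chains encoded by C1qa, C1qb and C1qc, binds a target and triggers cleavage of C4 and C2, and the fragments form an enzyme that cleaves C3. In the alternative pathway factor B, the product of Cfb, joins a C3 fragment and is cut by factor D, the product of Cfd, which is also known as adipsin and is secreted by adipocytes. The released peptides C3a and C5a act on receptors of myeloid cells, encoded by C3ar1 and C5ar1, and in fat C1q is made mainly by tissue macrophages.

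The genes described here are 9 of the 49315 rows of a count table from epididymal white adipose tissue (eWAT), the visceral fat pad beside the epididymis of male mice. They were chosen by symbol: the classical components C1qa, C1qb, C1qc, C2 and C4b, the central component C3, the alternative component Cfb, and the receptors C3ar1 and C5ar1. The table holds 12 libraries, 1 per mouse, with 3 mice in each of 4 groups, and the mice, males matched for age, were all fed a high-fat diet (HFD, 60% fat) for 12 weeks. Mir181a2b2 flox/flox mice (flox) served as controls and Mir181a2b2-/- mice (KO) lack Mir181a-2 and Mir181b-2 in all tissues, and each genotype was injected weekly with vehicle or with methotrexate (MTX, 1 mg/kg, intraperitoneally), an antifolate used in inflammatory disease. The comparisons ask how loss of these microRNAs and treatment with MTX relate to gene expression in the fat of obese mice.

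Both deleted microRNAs have the same seed, bases 2 to 8, which pairs with target messages. The mature 5p sequences are given here with the seed in capitals (RefSeq, GRCm38.p6, chr2:38852741-38852763 and chr2:38853845-38853868, plus strand).
miR-181a-5p: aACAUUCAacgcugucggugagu
miR-181b-5p: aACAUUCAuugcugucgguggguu
The complementary 7 letters, TGAATGT, were searched in the longest annotated 3' untranslated region of each gene (GENCODE M21). Among the 9 genes only C5ar1 held them, 1 time in 1298 bases, whereas the other 8 held none in 46 (C3) to 2688 bases (C3ar1). For comparison, 17.6% of 15390 tested genes with an annotated region held the letters, in regions with a median of 1098 bases. A match is a description of letters, and binding was not measured.

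Counted reads ranged from 19495310 to 23976469 per library. The precursor Mir181b-2 had 0 counts in 12 of 12 libraries and Mir181a-2 in 11 of 12, with 2 counts in a flox MTX library, so the table could not be used to check the deletion. A list of 17 adipocyte genes summed to between 20739.4 and 67009.7 CPM (read counts scaled to library size), so every library held fat. The flox vehicle libraries also held transcripts of the epididymis, with 24 marker genes summing to 6055.4, 17021.8 and 2020.5 CPM in replicates 1, 3 and 4, against 8.56 to 21.2 CPM in KO vehicle, 8.23 to 591.7 in flox MTX and 4.2 to 17.7 in KO MTX libraries. Sums of marker lists are shares of all counts, without TMM factors. In bulk tissue fewer cells of a type and less RNA per cell cannot be told apart. The p-values set each difference against a spread between mice that was estimated over all 12 libraries.

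The C1q genes lie side by side on the minus strand of chromosome 4 (GRCm38), C1qb at chr4:136880129-136886187, C1qc at chr4:136889804-136893065 and C1qa at chr4:136895917-136898803. Promoter sequence from RefSeq (GRCm38.p6) is shown for C1qb, C1qc and C3ar1, the searched genes that had a motif match in the stretch printed. That stretch is the part of the 250 bases before the RefSeq start that no annotated exon covers. All 3 are read on the minus strand. Capitals mark matches to a core of the myeloid factor PU.1 (GAGGAA) in C1qb and, as its reverse complement, in C1qc, and to a NF-kappaB motif (GGNNTTTCC) on the opposite strand in C3ar1.
C1qb, chr4:136886201-136886450: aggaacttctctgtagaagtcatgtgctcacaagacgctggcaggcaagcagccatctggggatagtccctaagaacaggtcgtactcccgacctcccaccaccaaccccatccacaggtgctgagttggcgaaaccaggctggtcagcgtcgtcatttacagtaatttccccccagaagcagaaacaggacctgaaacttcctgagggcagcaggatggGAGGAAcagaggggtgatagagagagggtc
C1qc, chr4:136893066-136893164: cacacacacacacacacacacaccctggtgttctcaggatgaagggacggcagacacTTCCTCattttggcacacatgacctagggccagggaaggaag
C3ar1, chr6:122856162-122856407: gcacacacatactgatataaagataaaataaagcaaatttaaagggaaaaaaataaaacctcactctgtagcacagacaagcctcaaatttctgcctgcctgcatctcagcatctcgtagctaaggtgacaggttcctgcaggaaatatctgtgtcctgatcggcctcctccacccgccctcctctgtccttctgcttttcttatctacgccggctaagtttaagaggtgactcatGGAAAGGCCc
Of 32851 mouse promoter windows, from 250 bases before to 50 after a start, 28.3% held GAGGAA on either strand and 5.82% held the NF-kappaB motif, so such matches were common. An interferon motif (GAAANNGAA), found in 8.56% of windows, had a match in the window of C5ar1 inside an annotated exon, and the window of C3 held none of the 3 motifs. C1qa, C2, C4b and Cfb were not searched.

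In eWAT of vehicle-treated flox mice C4b was the most abundant of the 9 genes per length, at 199.6 ± 6.56 CPM per kb of exon (SD, n = 3). C3 followed at 111 ± 37.0, then C1qa at 76.4 ± 23.1 and C1qb at 74.2 ± 21.2 CPM per kb, and the ranges of these 3 genes overlapped. C1qc, at 30.9 ± 9.80, lay below these without overlap, and its range overlapped with those of C2 at 18 ± 15.1 and Cfb at 17.7 ± 5.18 CPM per kb. The receptors were lowest, C5ar1 at 5.13 ± 1.33 and C3ar1 at 4.06 ± 0.944 CPM per kb, with overlapping ranges.

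The order differed in vehicle-treated KO mice, where C1qb (562.3 ± 145.9 CPM per kb) and C1qa (503.9 ± 128.9) stood above C3 (308.3 ± 17.2), C1qc (235.1 ± 63.2) and C4b (221.1 ± 42.6). There the receptors, at 61.4 ± 25.9 for C5ar1 and 42.6 ± 15.5 for C3ar1, stood above Cfb at 23.1 ± 2.47 and C2 at 10.2 ± 1.46 CPM per kb, with no overlap in range. In flox MTX mice C3 led at 422.8 ± 229.9 CPM per kb, and the ranges of C3, C1qa (379.8 ± 284.7), C1qb (362.4 ± 274.6) and C4b (302.9 ± 159) overlapped. KO MTX mice had the order of KO vehicle mice, from C1qb at 841.8 ± 178.1 to C2 at 9.82 ± 1.08 CPM per kb.

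**Figure D1:**
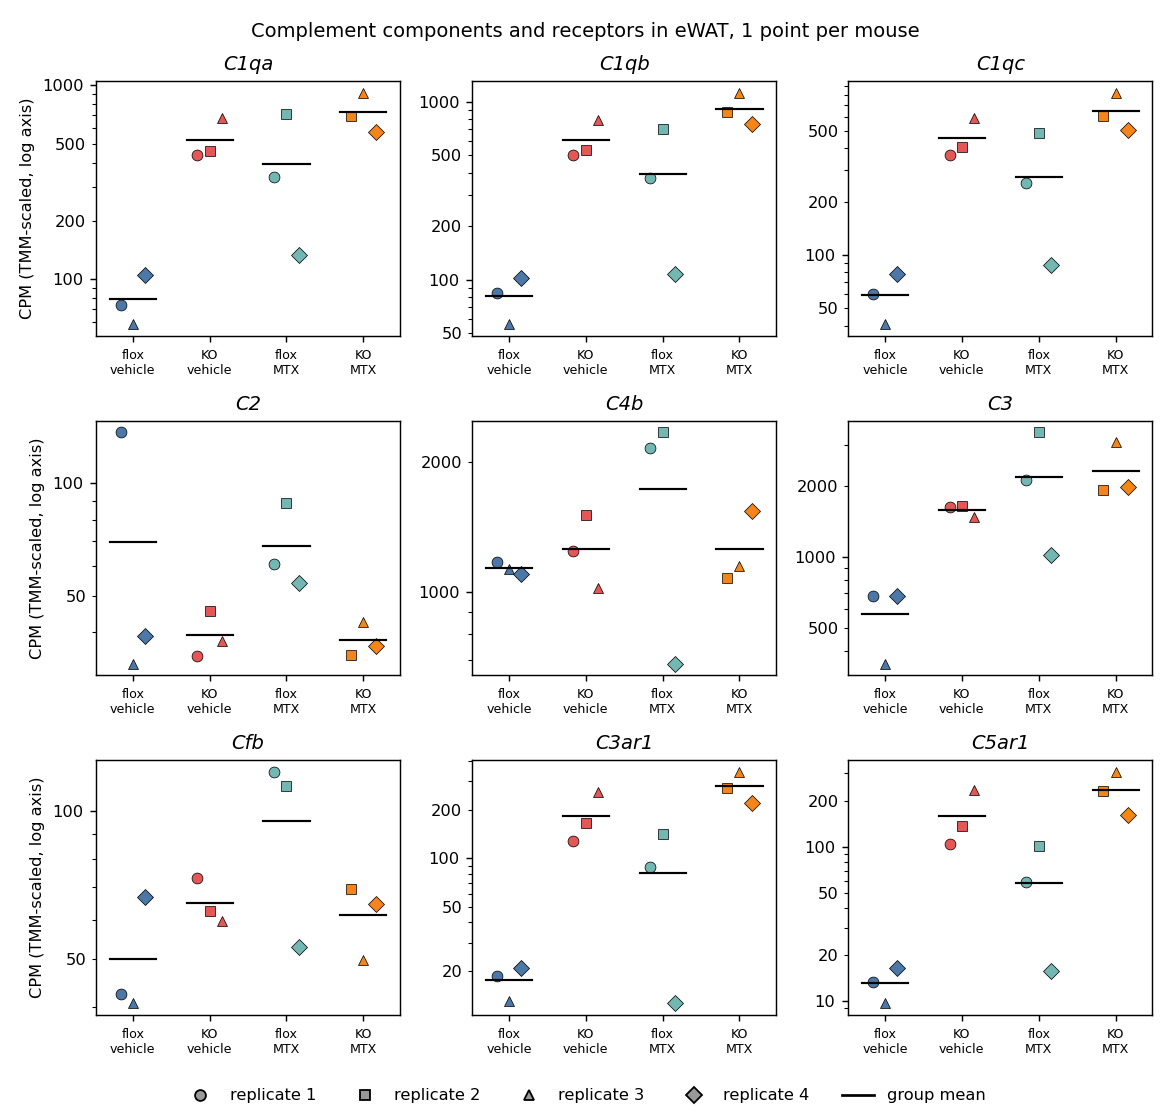
Level of each of the 9 genes in every mouse, in CPM scaled with TMM factors on a log axis, with 1 panel per gene, marker shapes for replicate numbers and a bar at the arithmetic mean of each group of 3. The C1q genes, C3, C3ar1 and C5ar1 are low in all 3 flox vehicle mice and high in all KO mice, the flox MTX mice spread widely with replicate 4 lowest, and C2, C4b and Cfb show no such separation.

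The first comparison addresses loss of the microRNAs without treatment. In KO mice on vehicle all 3 C1q chains, C3 and both anaphylatoxin receptors were higher than in flox mice on vehicle, whereas C2, C4b and Cfb did not pass the test. A gene was called when its Benjamini-Hochberg adjusted p from edgeR's quasi-likelihood test was below 0.1 and its fold change at least 1.5. By this rule 6 of the 9 genes were called higher and 0 lower, against 13.9% of the 18702 tested genes called higher and 17.8% called lower. The median log2 fold change was 2.72 over the 9 genes and -0.06 over all tested genes.

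C1qa, the A chain of C1q, measured 73.9, 58.7 and 105.8 CPM in flox vehicle replicates 1, 3 and 4 and 435.5, 458.5 and 678.2 CPM in KO vehicle replicates 1, 2 and 3. The lowest KO mouse was above the highest flox mouse, and the log2 fold change was 2.72 (SE 0.51, adjusted p = 0.00436). C1qb, the B chain, measured 84.1, 56.1 and 101.8 CPM in flox and 505.8, 535.3 and 794.4 CPM in KO mice, again without overlap (log2 fold change 2.92, SE 0.55, adjusted p = 0.00432). For C1qc, the C chain, the values were 60.0, 40.7 and 78.5 CPM in flox and 363.4, 405.8 and 592.7 CPM in KO mice (log2 fold change 2.93, SE 0.52, adjusted p = 0.00384). The chains thus rose by 6.59-, 7.58- and 7.60-fold. Among the flox mice replicate 3 was lowest and replicate 4 highest for each chain, the reverse of the order of the epididymis marker sum, and the part of that tissue in the levels was not tested.

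C3ar1, the receptor of C3a, measured 18.5, 13.0 and 21 CPM in flox and 128, 165.2 and 257.3 CPM in KO mice. C5ar1, the receptor of C5a, measured 13.4, 9.68 and 16.5 CPM in flox and 105.2, 135.8 and 232.5 CPM in KO mice. The groups did not overlap for either receptor. Their differences were the largest of the 9 genes, with log2 fold changes of 3.39 (SE 0.66, adjusted p = 0.00482) for C3ar1 and 3.58 (SE 0.59, adjusted p = 0.00324) for C5ar1, which are 10.5- and 12.0-fold. KO replicate 3 was the highest mouse of its group for the C1q chains and both receptors. Among the flox mice both receptors, like the C1q chains, were lowest in replicate 3 and highest in replicate 4. The part of the epididymis in the receptor levels was not tested.

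C3, whose cleavage the pathways share, rose less. It measured 680.0, 351.1 and 681.5 CPM in flox and 1628.4, 1645.2 and 1483.8 CPM in KO mice, without overlap, and the log2 fold change was 1.47 (SE 0.41, adjusted p = 0.0204), or 2.78-fold. Like the chains and receptors, C3 was lowest among the flox mice in replicate 3. All of the 6 called genes had groups that did not overlap, as had 22.8% of all tested genes in this direction.

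C4b, the mouse C4 gene, measured 1176.1, 1131.4 and 1101.9 CPM in flox and 1247.8, 1507.1 and 1022.5 CPM in KO mice, so the groups overlapped (log2 fold change 0.15, SE 0.38, adjusted p = 0.799). Reads of C4b and its near-identical copy C4a can be hard to assign, and C4a was counted at 1.06 to 4.07 CPM over the 12 libraries. Cfb measured 42.6, 40.7 and 66.9 CPM in flox and 73.1, 62.7 and 59.8 CPM in KO mice (log2 fold change 0.38, SE 0.29, adjusted p = 0.350). C2, the protease that joins C4 in the C3-cleaving enzyme, measured 137.1, 32.9 and 39.1 CPM in flox and 34.5, 45.6 and 37.9 CPM in KO mice (log2 fold change -0.83, SE 0.45, adjusted p = 0.186). The flox mean of C2 rested on replicate 1, and flox replicates 3 and 4 were both below the highest KO mouse. Without flox replicate 3 or 4 the fitted value was -1.16 (adjusted p = 0.0691) or -1.10 (adjusted p = 0.0883), which counts as lower. Both of these calls rest on the high value of flox replicate 1. C2 and Cfb are neighbours on chromosome 17 (chr17:34862604-34898265 and chr17:34856374-34862518, minus strand), and the overlapping gene Gm20547, counted at 0 to 1 reads, shares 42.8% of the exonic bases of C2 and 79.5% of those of Cfb. C2 further shares 4.16% of its exonic bases with Zbtb12 on the other strand. Reads of such shared exons may have been left out of the counts of both genes.

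Markers of other cell types moved with these genes. The 21 macrophage markers, all detected in every library, summed to between 859.7 and 1526.9 CPM in flox vehicle and between 5564.5 and 10119.7 CPM in KO vehicle mice, and 19 of 21 were called higher. Fibroblast markers (12 of 15 called higher, 1 lower) and endothelial markers (12 of 14 called higher) rose too, while 4 of 17 adipocyte markers were called lower. The 14 neutrophil genes summed to between 225.8 and 354.9 CPM in flox vehicle and between 32.5 and 49.1 CPM in KO vehicle mice, with 2 called higher and 2 lower of 9 tested. Ltf made up 204.2 to 337.3 CPM of that sum in flox vehicle and at most 0.819 CPM in KO vehicle mice, and the other 13 genes summed to 10.5 to 21.6 and 31.7 to 48.3 CPM. Ly6g, which defines these cells, was at most 0.182 CPM in every library. The part of cell content in the result was not tested.

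**Figure D2:**
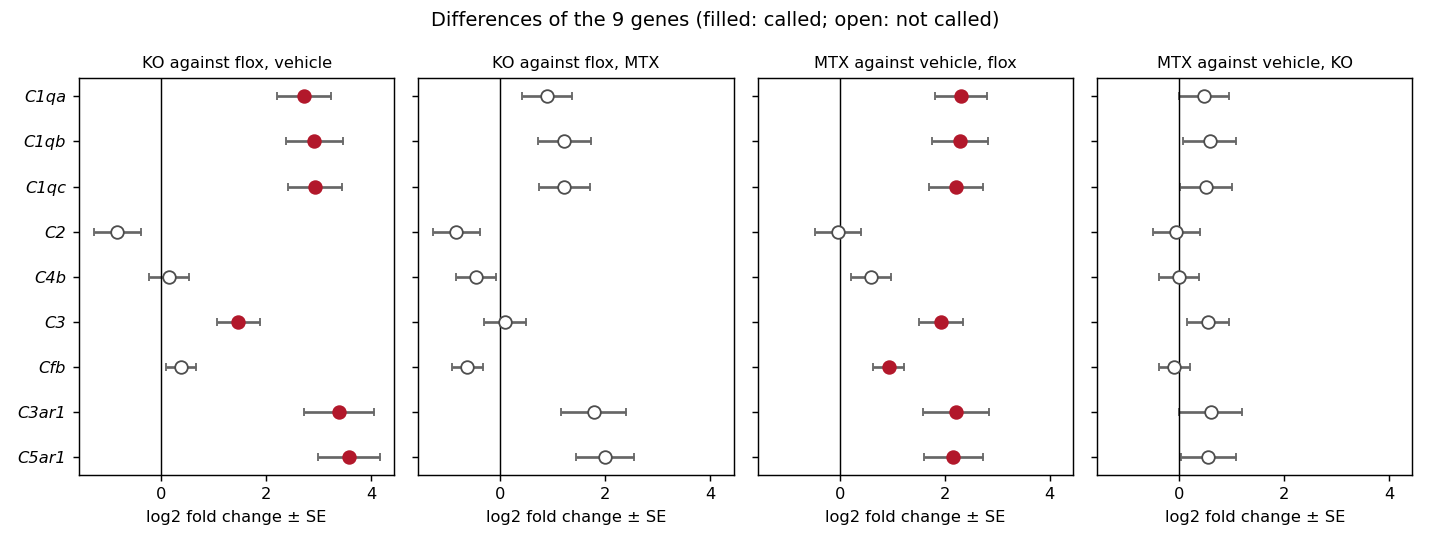
Log2 fold change with its standard error for each of the 9 genes (rows) in 4 comparisons (panels), from edgeR, with filled points for called genes. In KO against flox mice on vehicle 6 genes are filled and in MTX against vehicle in flox mice 7, while the panels for KO against flox on MTX and for MTX in KO mice hold open points only.

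Set against the summed macrophage markers of the same library, the C1q chains differed between groups by less than their CPM did. The log2 ratio of C1qa to that sum was -3.82 ± 0.06 in flox vehicle, -3.75 ± 0.10 in KO vehicle, -3.24 ± 0.18 in flox MTX and -3.65 ± 0.02 in KO MTX mice (SD, n = 3 each). The ratio of C1qb was -3.79 ± 0.10 in flox vehicle, -3.53 ± 0.10 in KO vehicle, -3.30 ± 0.18 in flox MTX and -3.32 ± 0.05 in KO MTX mice. For C1qc it was -4.24 ± 0.06, -3.96 ± 0.08, -3.76 ± 0.09 and -3.84 ± 0.04 in the same order. C1qb and C1qc were thus higher against the sum in KO than in flox vehicle mice without overlap, while C1qa overlapped between these groups and was higher in flox MTX than in flox vehicle mice. C3ar1 and C5ar1 also stood higher against the same sum in KO than in flox vehicle mice. For C5ar1 the ratio ran from -6.5 to -6.33 in flox vehicle and from -5.71 to -5.4 in KO vehicle mice, and for C3ar1 from -6.16 to -5.87 and from -5.43 to -5.2, with no overlap for either gene. Other complement receptors differed in this. The ranges overlapped for C5ar2 (-9.37 to -8.49 and -8.69 to -8.45) and Itgam (-6.47 to -5.94 and -6.22 to -5.88). Those of Itgb2 did not (-4.86 to -4.81 and -4.74 to -4.6). Lyz2 and Lgals3 were the most abundant markers of the sum in every library, and its markers did not rise alike. Trem2 measured 27.2, 14.4 and 23.8 CPM in flox vehicle and 246.9, 288 and 525.5 CPM in KO vehicle mice. Marco measured 5.77, 2.05 and 4.62 CPM and 4.53, 4.87 and 4.31 CPM. The direction of these ratios, for the C1q chains and the receptors, can thus depend on the markers summed.

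The remaining genes of the 9 fell behind the macrophage sum in KO mice, with mean log2 ratios going from -0.99 to -2.12 for C3, from 0.06 to -2.47 for C4b, from -4.48 to -6.73 for Cfb and from -4.28 to -7.47 for C2. Against the summed fibroblast markers C3 was at -2.77 ± 0.28 in flox vehicle and -2.72 ± 0.37 in KO vehicle mice, with overlapping ranges, whereas C4b was at -1.71 ± 0.46 and -3.07 ± 0.54. These ratios are descriptions of libraries and carry no test.

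**Figure D3:**
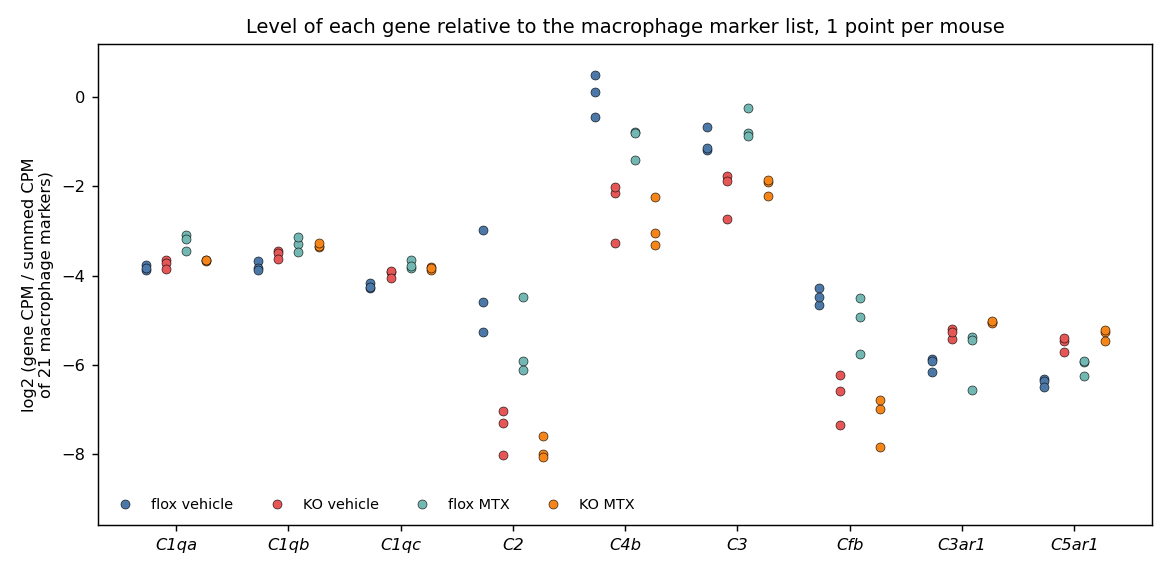
Log2 ratio of each gene's CPM to the summed CPM of 21 macrophage markers in the same library, 1 point per mouse, with colours for the 4 groups. C1qb, C1qc, C3ar1 and C5ar1 are higher in KO than in flox vehicle mice, C1qa overlaps between these groups, and C2, C4b, C3 and Cfb are lower in KO than in flox vehicle mice.

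The ratios between the C1q chains spanned less than their levels. Over the 12 libraries the ratio of C1qb to C1qa CPM ran from 0.808 to 1.30 and that of C1qc to C1qa from 0.660 to 0.894, while their summed level ran from 155.6 to 2866.8 CPM. In KO vehicle mice the ratio of C1qb to C1qa was 1.16, 1.17 and 1.17, and in KO MTX mice 1.25, 1.23 and 1.30, against 0.956 to 1.14 in flox vehicle mice. C3 was below C4b in every flox vehicle mouse, with ratios of 0.578, 0.310 and 0.618, and above it in every KO mouse, with ratios from 1.09 to 2.66. In flox MTX replicates 1, 2 and 4 the ratios were 0.982, 1.45 and 1.49, so the order was not particular to KO mice. C5ar1 spanned the widest range, 31.8-fold from flox replicate 3 to KO MTX replicate 3, and Cfb the narrowest, 2.95-fold.

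Of 46 other complement genes on a list written for the pathway, 39 passed the filter on low counts, and in KO against flox mice on vehicle 14 were called higher and 7 lower, against 13.9% and 17.8% of all tested genes, with a median log2 fold change of 0.42. The share called lower was thus near that of all tested genes. By role, receptors had the highest median log2 fold change, 2.77, with 6 of 7 tested called higher. Itgam and Itgb2, the subunits of complement receptor 3, had log2 fold changes of 2.77 (SE 0.55, adjusted p = 0.00494) and 2.83 (SE 0.56, adjusted p = 0.00488). Itgax, which pairs with Itgb2 in complement receptor 4, reached 3.05 (SE 0.64, adjusted p = 0.00614). C5ar2, the second C5a receptor, measured 2.34, 2.20 and 2.26 CPM in flox and 13.4, 15.5 and 28.1 CPM in KO mice (log2 fold change 3.06, SE 0.57, adjusted p = 0.00435). Vsig4, a macrophage receptor for C3 fragments, measured 1.17, 0.590 and 0.970 CPM in flox and 3.98, 5.51 and 5.62 CPM in KO mice (log2 fold change 2.47, SE 0.41, adjusted p = 0.00326).

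The proteases that C1q carries rose by less than its chains, with log2 fold changes of 1.43 (SE 0.38, adjusted p = 0.0162) for C1ra and 0.97 (SE 0.31, adjusted p = 0.0375) for C1s1. Of the lectin pathway Fcna (1.97, SE 0.42, adjusted p = 0.00612) and Colec12 (1.04, SE 0.24, adjusted p = 0.00926) were called higher among 6 tested. Among 15 inhibitors and regulators 3 were called higher and 4 lower, against 13.9% and 17.8% of all tested genes. Their median log2 fold change was 0.09. Those called higher included Serping1, the C1 inhibitor (1.60, SE 0.40, adjusted p = 0.0128), and Vtn (1.35, SE 0.25, adjusted p = 0.00432). Cd55, Cd59a, Cr1l and Cfi, further regulators, had values from 0.09 (Cfi) to 0.61 (Cd55) that did not pass the test, and Clu was at -1.13 (adjusted p = 0.104).

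The alternative pathway split. Cfd measured 7980.6, 1446.9 and 1619.8 CPM in flox and 693.7, 395.3 and 172.6 CPM in KO mice, without overlap, and was called lower (log2 fold change -3.13, SE 0.83, adjusted p = 0.0167), while Cfp, which encodes the stabilising factor properdin, was called higher (1.52, SE 0.35, adjusted p = 0.00926). The ratio of Cfd to C3 CPM was 11.7, 4.12 and 2.38 in flox and 0.426, 0.240 and 0.116 in KO vehicle mice. C6 and C8g of the terminal pathway were called lower, at -1.38 (SE 0.52, adjusted p = 0.0693) and -1.02 (SE 0.37, adjusted p = 0.0604), and Hc, the gene of C5, was counted at no more than 1.12 CPM in these 6 mice.

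The 4 inhibitors and regulators called lower were C4bp, Cpn1, Cd55b and Susd4. C4bp measured 55.5, 233.1 and 18.7 CPM in flox vehicle replicates 1, 3 and 4 and at most 0.328 CPM in KO vehicle mice, and Cpn1 24.5, 85.6 and 9.51 CPM and at most 0.635 CPM. Their order among the flox mice was that of the epididymis marker sum, whose part in these calls was not tested.

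**Figure D4:**
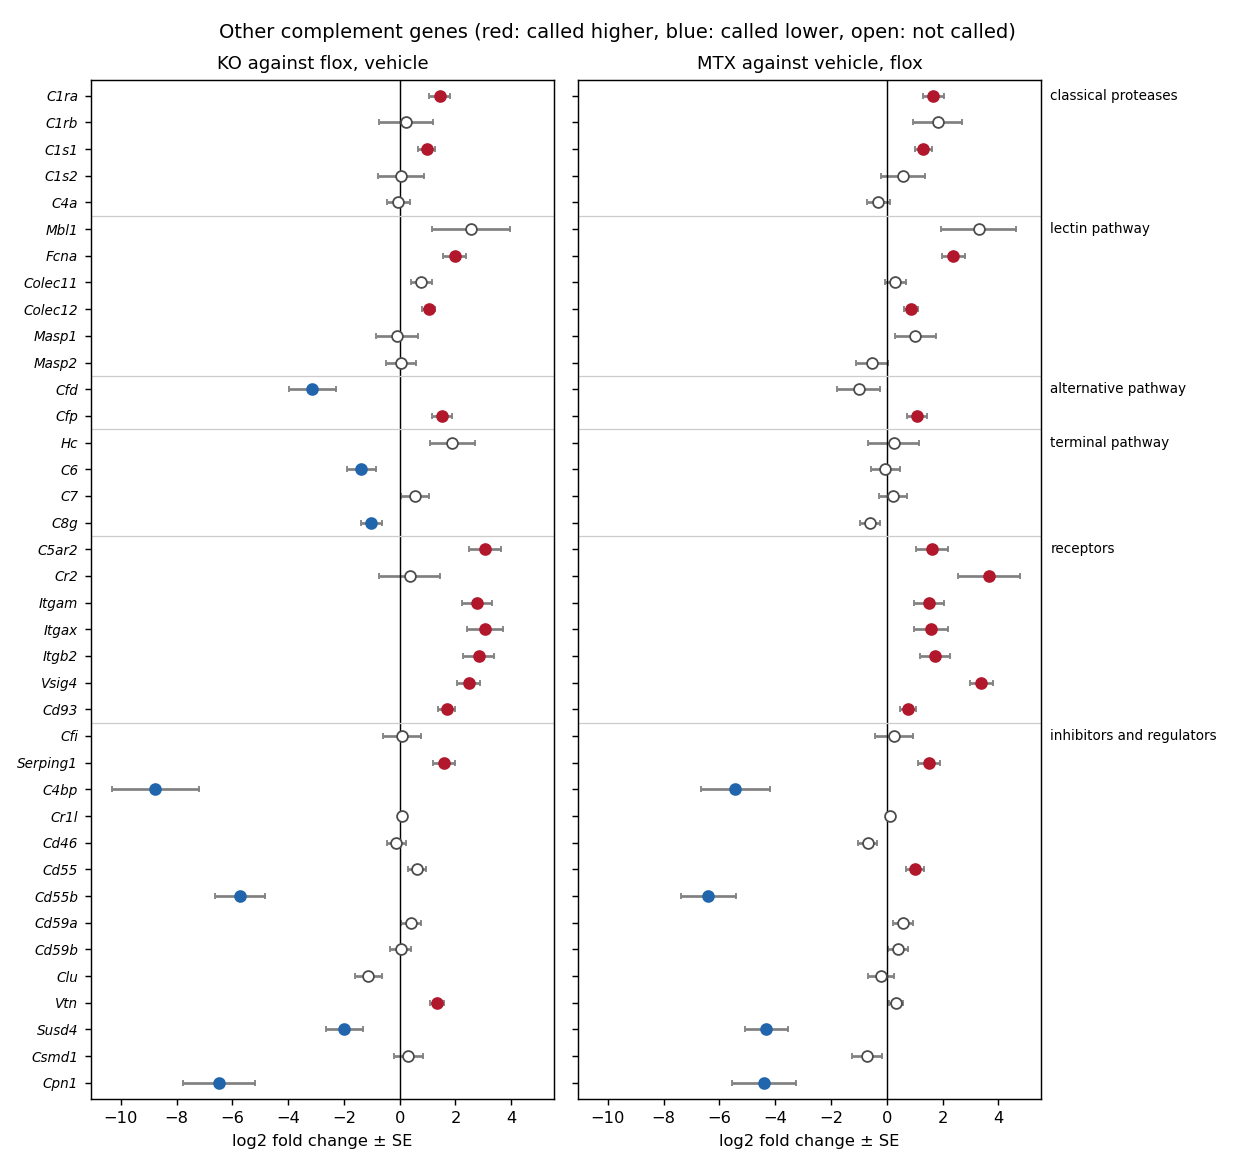
Log2 fold change with its standard error for tested genes of the other complement list (rows, grouped by role at the right), in KO against flox mice on vehicle (left) and in MTX against vehicle in flox mice (right), from edgeR. Red points are called higher and blue points lower, and the receptors are red except Cr2 on the left.

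The second comparison addresses MTX in flox mice. In flox mice MTX was accompanied by higher C1q chains, C3, Cfb, C3ar1 and C5ar1, so 7 of the 9 genes were called higher and 0 lower, against 8.09% and 16.1% of all tested genes. The median log2 fold change was 2.16 over the 9 genes and 0.05 over all tested genes. The same flox vehicle libraries serve here as controls.

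The rise was uneven between the MTX mice. C1qa measured 335.8, 716.2 and 133.1 CPM in flox MTX replicates 1, 2 and 4, C1qb 371.8, 703.7 and 107.5 CPM, and C1qc 255.8, 485.3 and 87.8 CPM. Replicate 4 was only slightly above the highest flox vehicle mouse for each chain. The log2 fold changes were 2.31 (SE 0.50, adjusted p = 0.0121), 2.29 (SE 0.53, adjusted p = 0.0154) and 2.21 (SE 0.51, adjusted p = 0.0148). C3 measured 2115.6, 3385.6 and 1022.6 CPM, above every flox vehicle mouse (log2 fold change 1.93, SE 0.42, adjusted p = 0.0117). The C1q chains and C3 were the genes among the 9 whose groups did not overlap, as in 10.9% of all tested genes in this direction.

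C3ar1 measured 88.0, 141.5 and 12.6 CPM and C5ar1 59.2, 101.2 and 15.8 CPM in flox MTX replicates 1, 2 and 4. For both receptors replicate 4 lay within or just below the flox vehicle range, so the groups overlapped, and the calls had adjusted p = 0.0343 for C3ar1 (log2 fold change 2.21, SE 0.63) and 0.0234 for C5ar1 (2.16, SE 0.56). Cfb measured 120.2, 112.5 and 53.1 CPM and was called with a log2 fold change of 0.93 (SE 0.29, adjusted p = 0.0471). These 3 calls were lost without flox vehicle replicate 3, with log2 fold changes of 2.03 (adjusted p = 0.135) for C3ar1, 1.98 (adjusted p = 0.103) for C5ar1 and 0.80 (adjusted p = 0.175) for Cfb, which left 4 of the 9 genes called. Cfb also missed the limit under scaling by library size without TMM factors (0.76, adjusted p = 0.116) and without flox replicate 1 (0.83, adjusted p = 0.134), flox MTX replicate 1 (0.73, adjusted p = 0.142) or flox MTX replicate 2 (0.80, adjusted p = 0.101), and when the 2 groups were fitted alone both Cfb (0.91, adjusted p = 0.181) and C3ar1 (2.20, adjusted p = 0.138) missed it.

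C4b measured 2154, 2336.8 and 684.7 CPM, with replicate 4 below and the others above every flox vehicle mouse (log2 fold change 0.60, SE 0.38, adjusted p = 0.285). Without flox MTX replicate 4 the value was 0.99 (adjusted p = 0.0215), which counts as higher. C2 measured 60.9, 88.6 and 54.0 CPM (log2 fold change -0.04, SE 0.44, adjusted p = 0.959), and without flox vehicle replicate 1, the mouse with 137.1 CPM, it turned to 0.92 (adjusted p = 0.0268).

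Flox MTX replicate 4 also had the lowest macrophage sum of its group, with 3236.3, 6254.3 and 986.5 CPM in replicates 1, 2 and 4, and 19 of 21 macrophage markers were called higher in this comparison. No endothelial marker of 14 was called, 7 of 15 fibroblast and 9 of 11 mesothelial markers were called higher, 1 mesothelial marker lower, and 12 of 17 tested epididymis markers lower. Of the neutrophil markers 5 of 9 were called higher and 1 lower, with sums without Ltf from 32.5 to 105.8 CPM in flox MTX mice. The part of these in the result was not tested.

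Of the other complement genes 15 were called higher and 4 lower for MTX in flox mice, against 8.09% and 16.1% of all tested genes, with a median log2 fold change of 0.58. All 7 tested receptors were called higher, among them Vsig4 at 3.39 (SE 0.42, adjusted p = 0.00331) and, with the smallest value, Cd93 at 0.75 (SE 0.29, adjusted p = 0.0905). Cr2, a receptor of B cells for C3 fragments, had the largest value of the 7, 3.66 (SE 1.12, adjusted p = 0.0424) and measured 0.756, 20.3 and 12.9 CPM in flox MTX against 0.236 to 1.35 CPM in flox vehicle mice, overlapping in replicate 1. C1ra (1.66, SE 0.38, adjusted p = 0.0146), C1s1 (1.31, SE 0.31, adjusted p = 0.0174), Fcna (2.39, SE 0.42, adjusted p = 0.00594) and Serping1 (1.52, SE 0.40, adjusted p = 0.0249) were called higher. Cfd did not pass the test, with 836.7, 2454.7 and 2198.1 CPM (log2 fold change -1.01, SE 0.78, adjusted p = 0.385). The genes called lower were C4bp, Cpn1, Cd55b and Susd4, all inhibitors or regulators. In flox MTX replicates 1, 2 and 4 C4bp measured 6.52, 0.136 and 0.313 CPM and Cpn1 5.15, 0.227 and 0.125 CPM. Replicate 1 also had the highest epididymis marker sum of the flox MTX mice, 591.7 CPM. The part of the epididymis in these calls was not tested.

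The third comparison sets KO against flox mice under MTX, where none of the 9 genes was called. KO MTX replicates 2, 3 and 4 measured 697.9, 918.3 and 573.7 CPM for C1qa, 873.3, 1127.5 and 746.9 CPM for C1qb and 607.4, 821.1 and 504.5 CPM for C1qc. C1qb and C1qc were above every flox MTX mouse, though close to replicate 2, whereas C1qa overlapped. C3ar1, at 270.6, 343.2 and 220.4 CPM, and C5ar1, at 230.5, 307.4 and 161 CPM, were above all flox MTX mice. The log2 fold changes were 0.89 (SE 0.48, adjusted p = 0.278) for C1qa, 1.22 (SE 0.51, adjusted p = 0.181) for C1qb, 1.22 (SE 0.49, adjusted p = 0.165) for C1qc, 1.78 (SE 0.62, adjusted p = 0.130) for C3ar1 and 1.99 (SE 0.55, adjusted p = 0.107) for C5ar1.

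With edgeR 0 of the 9 genes, and 0% of all tested genes, were called between KO and flox mice on MTX. At an unadjusted p below 0.05, 4 of the 9 (C1qb, C1qc, C3ar1 and C5ar1) were higher and 0 lower, against 11.5% and 12.9% of all tested genes, and DESeq2 called 4, along with 2734 genes in all. Without flox MTX replicate 2 edgeR called 5 of the 9 and 4064 genes in all, with log2 fold changes of 1.64 (adjusted p = 0.0341) for C1qa and 2.63 (adjusted p = 0.0288) for C5ar1, and without flox vehicle replicate 3 it called 1 of the 9 and 1028 genes in all. Groups did not overlap for C1qb, C1qc, C3ar1 and C5ar1 in the higher direction, as in 14.7% of all tested genes.

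C3 measured 1927.2, 3061.5 and 1978.8 CPM in KO MTX mice, within the flox MTX range (log2 fold change 0.09, SE 0.40, adjusted p = 0.907). C4b, at 1077.9, 1151.5 and 1537.5 CPM, and Cfb, at 69.6, 49.9 and 64.9 CPM, overlapped with flox MTX mice and had values of -0.46 (SE 0.38, adjusted p = 0.472) and -0.63 (SE 0.29, adjusted p = 0.207). C2 measured 34.7, 42.7 and 36.7 CPM, below every flox MTX mouse, as did 12.1% of all tested genes, with a value of -0.84 (SE 0.45, adjusted p = 0.269). Of the other complement genes 0 of 39 were called. At an unadjusted p below 0.05, 8 of these 39 were higher and 4 lower, against 11.5% and 12.9% of all tested genes. Cfd measured 244.4, 63.7 and 274.4 CPM in KO MTX mice, below every flox MTX mouse (log2 fold change -3.24, SE 0.84, adjusted p = 0.104), and no macrophage marker of 21 was called (median log2 fold change 1.21).

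In KO mice no difference between MTX and vehicle was detected for the 9 genes, with 0 called by edgeR, 0 by DESeq2 and 0 at an unadjusted p below 0.05 in either direction. Of all tested genes 0% were called, and 3.42% were higher and 4.56% lower at an unadjusted p below 0.05. The fitted values lay between -0.09 (Cfb, SE 0.29) and 0.60 (C3ar1, SE 0.60), and the smallest adjusted p was 0.795, for C3. The log2 fold change of C3 was 0.55 (SE 0.40). Standard errors of 0.29 to 0.60 leave room for differences of such size, so a miss of the threshold does not show that the levels were alike.

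The difference between the effects of MTX in KO and in flox mice was tested directly as an interaction. All 9 values were below 0, from -0.01 (C2) to -1.84 (C1qa), with a median of -1.60 against -0.05 over all tested genes, but 0 of the 9 were called, against 0.989% of all tested genes, and DESeq2 called 0. At an unadjusted p below 0.05, 5 were lower and 0 higher, against 5.45% and 9.58% of all tested genes. These were C1qa (-1.84, SE 0.68, adjusted p = 0.249), C1qb (-1.71, SE 0.72, adjusted p = 0.30), C1qc (-1.70, SE 0.69, adjusted p = 0.282), C3 (-1.38, SE 0.57, adjusted p = 0.289) and Cfb (-1.01, SE 0.41, adjusted p = 0.279). An MTX effect that differs between the genotypes was not shown for these genes at 3 mice per group. Of the other complement genes Vsig4 was called lower and Cd55b higher.

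The tested genes whose levels followed each member most closely, by the root mean square difference of mean-centred log2 CPM over the 12 libraries among 15515 genes with a mean of at least 1 CPM, were as follows. C1qa was followed by Ms4a6c (0.15), C1qc (0.16) and Lyz2 (0.17), C1qb by C1qc (0.08) and, among others, Tbxas1 (0.18), and C1qc by C1qb (0.08), C1qa (0.16) and Tlr7 (0.16). The SD of the C1q genes themselves was 1.41 to 1.54 on the same scale. C3ar1 was followed by Slc37a2 (0.11), Clec12a (0.15) and Nceh1 (0.16), and C5ar1 by Il7r (0.14), Cd300c2 (0.21) and Clec12a (0.22).

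C3, with Hpse (0.22), Tmem119 (0.23) and C1ra (0.23) nearest, had no C1q gene among its 3 nearest. Among the genes with a smaller spread, C4b (SD 0.48) was nearest to Crispld2 (0.28), R74862 (0.30) and Rcan2 (0.30). Cfb (SD 0.48) was nearest to Vegfd (0.19), Ifitm6 (0.23) and Gm12158 (0.23), and C2 (SD 0.63) to Net1 (0.25), H6pd (0.31) and Fign (0.32). All points share the same libraries, and these distances carry no test.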

How the data were processed

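RNA of eWAT from 12 mice was sequenced. The authors trimmed the reads (Trimmomatic 0.36 in the submitters' processing notes), aligned them to mm10 (GRCm38) with STAR 2.5.2b and counted the reads of each Ensembl gene in featureCounts (Subread 1.5.2). The methods say that overlapping reads were left out. The labels give polyA RNA and the methods depletion of ribosomal RNA, and the strand setting is not given in the sources used here. The values deposited by the authors are whole read counts without normalization.

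From these counts, in R 4.3.3 with edgeR 4.0.16, TMM factors and filterByExpr by group (18702 of 49315 genes), 1 model with a coefficient per group was fitted to 19495310 to 23976469 counts per library (8 residual degrees of freedom, common dispersion 0.1) and tested with the quasi-likelihood F-test, two-sided, with Benjamini-Hochberg adjustment over all tested genes. Calls needed 2 limits, adjusted p below 0.1 and 1.5-fold. An exact permutation test of 3 against 3 cannot go below 0.1. CPM are TMM-scaled except in sums of marker lists, and log2 CPM used a prior count of 0.5. The limits of detection, 3 counts, cover counting error only.

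Named genes are the 9 genes, 16 further complement genes, the called genes with the largest change, genes overlapping a member, and the 3 genes most like each member. C4bp, Cpn1, Susd4, Vtn, Colec12, Itgax, Cd93, Cr2, C6, C8g and C4a were named after their values were seen where that rule did not hold them. The members and lists were chosen with earlier results of these data known. Alternatives were DESeq2 1.42.0, a block for replicate number, other scalings, filters and limits, fits to only the groups compared, and omission of each mouse in turn. A few named items are not reported here. The fits were tested on simulated counts. Lengths are summed exons of GENCODE M21. No pair of libraries was a duplicate (chi-square per degree of freedom at least 14.1).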

Additional observations from a re-analysis of the deposited data

Results flagged for a closer look

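For Vsig4, a macrophage receptor for C3 fragments, the test of a difference between the genotypes in the effect of MTX passed the threshold, with an interaction of -2.64 on the log2 scale (SE 0.54, edgeR adjusted p = 0.0847). Vsig4 measured 0.590 to 1.17 CPM in flox vehicle and 7.46, 14.4 and 6.94 CPM in flox MTX mice, against 3.98 to 5.62 CPM in KO vehicle and 6.48, 12.3 and 6.64 CPM in KO MTX mice, so MTX mice were higher in 3 of 3 libraries of either genotype. The call was lost under 11 of 18 alternatives, among them the replicate block (adjusted p = 0.237), and the adjusted p ranged from 0.000616 with DESeq2 to 0.30 without KO MTX replicate 4.

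Cd55b, a copy of the decay accelerating factor gene, had an interaction of 8.44 (SE 1.49, adjusted p = 0.0630). It was counted at 20, 91 and 29 reads in the flox vehicle libraries, which carried epididymis transcripts, and at 5 reads or fewer in the other 9 libraries, and its call was lost under 8 of 17 alternatives. The fitted value depends on the prior count and is no measure of size. The part of the epididymis in this value was not tested.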

How the results depend on the processing

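Of the 9 genes, 6 were called between KO and flox mice on vehicle under every tool, scaling and filter tried, 5 with a log2 limit of 1.5, and 7 without flox replicate 3 or 4. Without replicate 3 or 4, 4832 or 6574 genes in all were called, against 5924 with every mouse. Between KO and flox mice on MTX the count of 0 became 4 with DESeq2, 1 with no filter and 1 under a minimum of 10 counts per library, and ranged from 0 to 5 with 1 library left out. The other complement list, at 0, gave 10, 6 and 7 there, and from 0 to 11. Over all genes the calls there went from 0 to 2734, 875 and 1491, and ran from 0 to 4064 with a library left out. For MTX in flox mice 7 genes became 4 to 8 with a library left out, and the other list's 19 became 12 with library size as the only scaling, 12 with at least 10 counts, 9 in the libraries of the comparison alone, and 9 to 21 with a library left out. In the same settings all genes called for MTX in flox mice went from 4528 to 4373, 2198 and 2167. They ran from 2219 to 5995 with a library left out. For MTX in KO mice the other list's 0 became 1 with DESeq2 and ranged from 0 to 1. There 0 genes in all became 275 with DESeq2 and ran from 0 to 215 with a library left out. The other list's 2 interaction calls became 1 with library size only, 0 with at least 10 counts and 4 with DESeq2, and ranged from 0 to 5. Interaction calls over all genes went from 185 to 191, 1 and 1232, and ran from 5 to 1371 with a library left out. The value of C2 for MTX in flox mice ran from -0.38 to 0.92 with a library left out, and turned to 0.92 (called higher) without flox replicate 1. Among single genes 58 values passed the threshold anew, 83 lost it and 2732 kept their side. The cause of these changes was not tested.

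Replicate numbers were not treated as pairs, since of 12 pairs with the same number 3 had a residual correlation over 0.1 (range -0.189 to 0.212, median 0.0172, against 0.0214 for 42 other pairs). With the replicate block 6 of the 9 genes were called in KO against flox mice on vehicle, 5 for MTX in flox mice, where C3ar1 (1.82, adjusted p = 0.151) and Cfb (0.76, adjusted p = 0.173) were not called, and 0 in the other comparisons, and the other list had 20, 11 and 0 calls, with 0 interactions. Over all genes the block gave 5080, 2771 and 0 calls, with 0 interactions. Library size as the only scaling moved the median of all tested genes from 0.05 to -0.15 for MTX in flox mice and from -0.05 to 0.12 for KO against flox mice on MTX, and from -0.05 to 0.13 for the interaction.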
